A study of Mus musculus with 20 samples.

Results

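Mouse CD4 T cells were ordered here by their known reactivity to self. The order runs from naive cells with low surface CD5 (CD5lo), through naive cells with high surface CD5 (CD5hi), to regulatory T cells (Treg). Its members are 12 of the 20 libraries of the series, 4 per group, taken by sample title. All 3 groups came from C57BL/6 animals with a Foxp3-GFP reporter, 8 to 12 weeks of age, whose lymph nodes and spleens were sorted, and all were lysed straight after the sort. Per the labels, each library pools male and female animals. CD5lo and CD5hi cells are the 15% of lowest and of highest CD5 staining among CD44-low, Foxp3-GFP-negative CD4 T cells. Treg are the Foxp3-GFP-positive CD4 T cells, with no gate on CD44 or CD5 stated. Activated Treg can therefore be part of that group, while activated conventional cells were gated out of the naive groups. The other 8 libraries hold CD5lo and CD5hi cells kept for 22 hours with interleukin 7 at 10 ng/mL, away from self-peptide (rested), and served as a readout that the order did not use.

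The surface protein CD5 dampens signals of the T cell receptor (TCR). Its level on a naive T cell is set in the thymus by how strongly the TCR binds self-peptide on MHC molecules, and contact with self keeps it up in the periphery. Treg are selected by stronger self-recognition than most conventional CD4 cells and continue to receive TCR signals, which they show through immediate-early genes such as Nr4a1. CD5hi cells are therefore commonly placed between CD5lo cells and Treg. The design text names the comparison of CD5lo, CD5hi and Treg at homeostasis, and the question put to the counts was which genes follow that order and which have their highest or lowest level in the middle group.

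Total counts per library were 51060992 to 58269055 in CD5lo cells, 43770193 to 59065224 in CD5hi cells and 43509126 to 54555773 in Treg. Levels are CPM (counts scaled to library size, with TMM factors), differences are log2 fold changes with their SE, and calls are edgeR quasi-likelihood tests at a Benjamini-Hochberg adjusted p under 0.05, with n = 4 libraries per group throughout. In bulk RNA, fewer cells with a transcript and less transcript per cell cannot be told apart. The sorts showed in their own markers. Cd5 had 148, 161, 139 and 157 CPM in CD5lo cells, 1007, 1016, 928 and 1083 CPM in CD5hi cells and 635, 638, 642 and 603 CPM in Treg. The 3 groups did not overlap, and Cd5, whose first step the sort itself set, stood highest in the CD5hi libraries. Its second step set the 15% of highest CD5 staining against Treg with no stated CD5 gate. The part of that gate in the second step was not tested. Foxp3, the Treg transcription factor, averaged 22.9 ± 1.08, 24.7 ± 1.41 and 750 ± 39.7 CPM (SD) in that order, and Cd4 averaged 1136 ± 26.8, 946 ± 34.7 and 733 ± 22.8 CPM. Markers of other cells were low. The summed B cell markers reached 9.51 CPM in CD5lo, 9.95 CPM in CD5hi and 43.6 CPM in Treg libraries, and 13 of 15 listed markers were in the table. Myeloid markers summed to 51.6 to 59.9, 53.1 to 58.7 and 56.2 to 61.7 CPM in the same order, and CD8, NK and gamma-delta markers to 89.4 to 97.1, 38.9 to 42.1 and 33.1 to 40.2 CPM. Clec9a was at 0 in all CD5hi libraries, Klra1 in all CD5lo libraries, and Ncr1 and Klre1 in all CD5hi libraries. Erythroid and platelet markers summed to 59.1 to 122, 38.2 to 83 and 4.82 to 37.4 CPM. The part of these cells in the steps was not tested. Although the labels speak of pooled sexes, all 8 fresh naive libraries and Treg replicate 3 carried 345 to 415 CPM of Y-linked transcripts. Treg replicates 1, 2 and 4 carried at most 0.155 CPM of them, with 1560 to 1800 CPM of Xist. Differences between Treg replicates 1, 2 and 4 and naive cells thus cannot be told apart from sex, and results are also given with Treg replicate 3 as the sole Treg library where that ends a call.

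The linear trend, taken end to end as Treg minus CD5lo, was called for 8379 of 13163 genes tested (63.7%), 4305 higher (32.7%) and 4074 lower (31%) in Treg. With library totals alone as the scale the split was 5129 higher and 3091 lower. The quadratic trend, the CD5hi level minus the midpoint of CD5lo and Treg on the log2 scale, was called for 4841 genes (36.8%), of which 2240 lay above (17%) and 2601 below (19.8%) the midpoint. The order has no measured distances, so the midpoint assumes equal spacing. Shapes were therefore read from the single steps. CD5hi against CD5lo was called for 2098 genes (15.9%), 1232 higher (9.36%) and 866 lower (6.58%) in CD5hi cells. Treg against CD5hi was called for 7952 genes (60.4%), 4145 higher (31.5%) and 3807 lower (28.9%) in Treg. On a principal component plot of the 12 libraries, the first component (81.9% of variance) parted Treg, at 94.9 to 101, from naive cells, with CD5hi libraries at -42.2 to -38.5 and CD5lo libraries at -60 to -54.4. The second (6.03%) parted CD5hi, at -27 to -22.2, from CD5lo, at 19.7 to 23, and Treg lay between them at 1.3 to 3.79. Components are centred and orthogonal, so this middle place of Treg largely follows from its distance on the first.

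Both steps were called for 1691 genes (12.8%). Of these, 997 (59%) moved the same way at both steps. A total of 671 genes rose at both steps and are called graded up (5.1% of genes tested), and 326 fell at both and are called graded down (2.48%). In the remaining 694 genes the steps ran in opposite directions: 364 peaked in CD5hi cells (2.77%) and 330 had their trough there (2.51%). A further 6261 genes changed at the Treg step without a called first step, and 407 changed at the CD5hi step without a called second step. The steps share the CD5hi libraries, so an error in those libraries enters the 2 steps with opposite sign, which adds to peaks and troughs and takes away from graded genes. By the median, the first step of graded genes was the smaller one. The quadratic trend was not called in 321 of the 671 genes graded up and in 181 of the 326 graded down. The first step made up a median 37.7% (quartiles 27.1 to 51.6%) of the end-to-end difference of genes graded up and 36.7% (25.4 to 48.9%) of genes graded down. The median steps were 0.67 and then 1.16 in genes graded up, and -0.31 and then -0.54 in genes graded down. Genes with a peak had median steps of 0.34 and -0.55, and genes with a trough -0.40 and 0.78, while both medians over all genes tested were 0.00. Each step was at least 2-fold in 198, 32, 42 and 38 genes of these 4 shapes. The libraries of neighbouring groups did not overlap at either step in 575, 281, 317 and 264 of them, against 14.9% of all genes tested, where the libraries were apart in 20.4% at the first step and in 53.8% at the second. Genes of the 4 shapes were picked because both steps passed on these same libraries, so much of this separation follows from the selection.

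**Figure D1:**
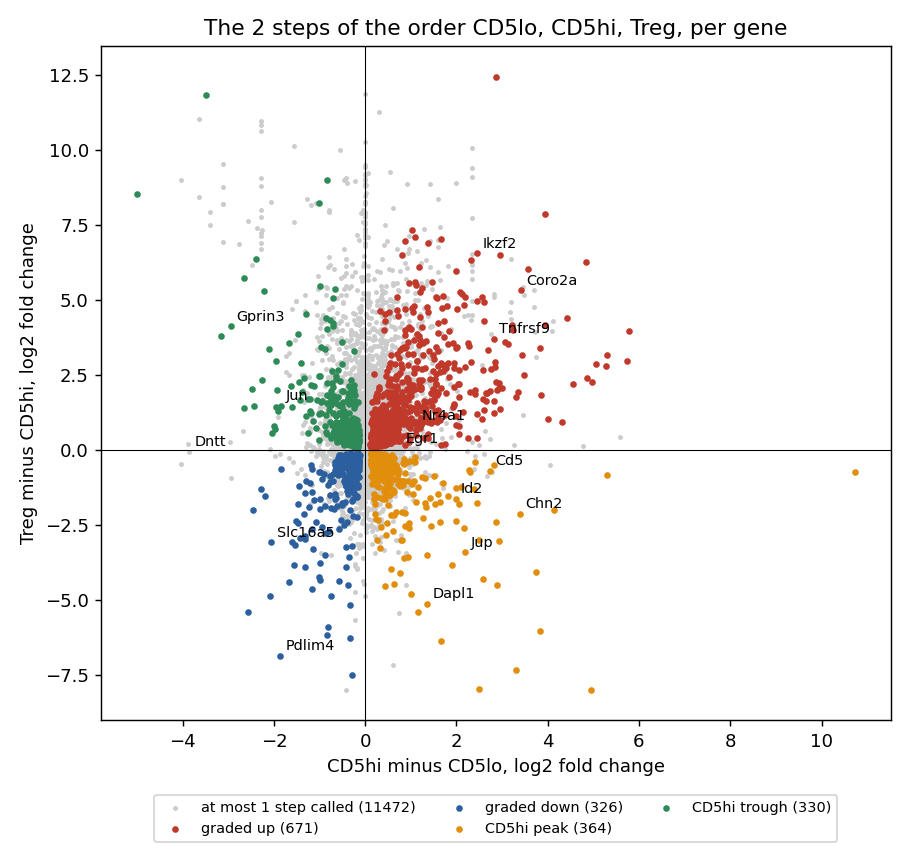
Each point is 1 of 13163 genes. The horizontal axis is the CD5hi minus CD5lo difference and the vertical axis the Treg minus CD5hi difference, both log2 fold changes, and colours mark the 671 graded up, 326 graded down, 364 peak and 330 trough genes. Graded genes lie in the upper right and lower left quadrants, peaks in the lower right and troughs in the upper left, and the vertical spread exceeds the horizontal one.

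The promoter of 1 gene of each shape is shown for context, the first by the naming rule that has an entry in the RefSeq table (build GRCm38.p6): Ptpn5 (graded up), Adamts14 (graded down), Jup (peak) and Gprin3 (trough). Each run is the 250 bases before the annotated start, 5′ to 3′ on the strand of the gene, and capitals mark matches to the motifs searched. All 4 genes lie on the minus strand, at chr7:47133685-47133934, chr10:61273420-61273669, chr11:100397791-100398040 and chr6:59426307-59426556 in that order.
Ptpn5: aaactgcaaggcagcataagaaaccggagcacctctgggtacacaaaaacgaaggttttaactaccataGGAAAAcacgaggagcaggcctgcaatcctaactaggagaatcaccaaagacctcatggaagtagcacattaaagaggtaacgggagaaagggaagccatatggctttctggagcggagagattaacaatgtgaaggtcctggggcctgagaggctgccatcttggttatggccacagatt
Adamts14: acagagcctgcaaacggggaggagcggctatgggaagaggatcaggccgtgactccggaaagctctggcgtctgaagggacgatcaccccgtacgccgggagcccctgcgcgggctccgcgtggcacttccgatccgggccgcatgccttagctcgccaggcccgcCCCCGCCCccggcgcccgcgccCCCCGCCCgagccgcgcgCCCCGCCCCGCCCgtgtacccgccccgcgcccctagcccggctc
Jup: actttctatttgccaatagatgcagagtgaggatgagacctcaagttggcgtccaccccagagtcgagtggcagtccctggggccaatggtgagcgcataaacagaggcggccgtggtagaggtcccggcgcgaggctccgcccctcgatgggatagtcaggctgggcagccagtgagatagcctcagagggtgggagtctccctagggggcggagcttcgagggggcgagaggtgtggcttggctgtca
Gprin3: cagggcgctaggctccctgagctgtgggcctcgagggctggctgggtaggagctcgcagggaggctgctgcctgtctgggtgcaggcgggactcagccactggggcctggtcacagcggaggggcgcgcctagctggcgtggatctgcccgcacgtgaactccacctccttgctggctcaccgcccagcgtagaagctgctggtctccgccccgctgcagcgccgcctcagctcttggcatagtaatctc

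Both strands were searched for an NR4A element (AAAGGTCA, in 1.31% of 27025 promoters of the table over the same 250 bases), an EGR element (GCGTGGGNG, 1.61%), AP-1 (TGANTCA, 6.87%), an NFAT core (GGAAAA, 20.6%), a forkhead element (TGTTTAC, 3.09%), ETS (CAGGAAGT, 2.73%), an NF-kappaB motif (0.337%) and a KLF-type GC box (GGGCGGGG, 16.3%). Ptpn5 held the NFAT core letters at base -181. Adamts14, with 76.4% G and C, held the GC box on the opposite strand at bases -84, -62, -44 and -39, the last 2 of which overlap. Jup and Gprin3 held none of these letters in this window. Shares were not compared between the shapes, because 69.7% of the genes tested matched an entry by symbol.

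Nearly all genes of the list that TCR signalling induces were higher at the Treg end of the order, while fewer of them passed at both steps. Of 24 such genes tested, 23 were higher in Treg than in CD5lo cells, against 32.7% of all genes tested, and 10 were graded up, against 5.1%. Another 10 rose at the Treg step alone (23.9% of all genes) and 3 at the CD5hi step alone (1.5%). Their median end-to-end difference was 2.17, against -0.01 over all genes. Nr4a1, the orphan nuclear receptor used as a reporter of TCR signal strength, had 30.7, 33.7, 36.6 and 29.7 CPM in CD5lo cells, 64.6, 71.5, 82 and 67.4 CPM in CD5hi cells and 122, 135, 127 and 121 CPM in Treg. The 12 libraries fell into 3 separate ranges in the order of the groups. The first step was 1.13 ± 0.08 (adjusted p = 5.8e-09) and the second 0.82 ± 0.07 (adjusted p = 3.4e-08), and the CD5hi level was not called away from the midpoint (quadratic 0.15, adjusted p = 0.074). Nr4a3, of the same family, averaged 6.28 ± 0.612, 11.2 ± 1.2 and 23.3 ± 1.93 CPM, with steps of 0.83 ± 0.10 and 1.06 ± 0.09.

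The Egr genes, immediate-early zinc finger factors downstream of the TCR, split by shape. Egr2 was graded up at 12.8 ± 1.22, 20.5 ± 1.96 and 49.8 ± 1.38 CPM. Egr1 had 69.9, 62.7, 62.5 and 65.8 CPM in CD5lo cells, 110, 110, 119 and 106 CPM in CD5hi cells and 118, 113, 112 and 117 CPM in Treg. The CD5hi and Treg libraries overlapped and both lay above every CD5lo library. Its first step was 0.77 ± 0.05 (adjusted p = 2.9e-09) and its second 0.05 ± 0.05 (adjusted p = 0.38; 0.036 on library totals alone). Egr3 rose at the first step by 0.61 ± 0.07, and its second step was 0.09 ± 0.07 (adjusted p = 0.27). Nab2, a corepressor that binds Egr factors and is itself induced with them, averaged 66.7 ± 6.6, 106 ± 18.2 and 110 ± 4.43 CPM, with a called first step of 0.67 ± 0.09. Irf4, a factor induced in proportion to TCR signal, did not pass at the first step (7.49 ± 0.64 and 7 ± 0.427 CPM in CD5lo and CD5hi cells) and had 99.9 ± 5.35 CPM in Treg, a second step of 3.84 ± 0.07. It was 1 of 10 genes of the list called at the Treg step alone.

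Tnfrsf9, which encodes the costimulatory receptor 4-1BB, had 1.72, 1.51, 1.39 and 1.83 CPM in CD5lo cells, 11, 12, 10.1 and 12.6 CPM in CD5hi cells and 161, 144, 157 and 137 CPM in Treg. No library of a group reached the range of the next. The steps were 2.82 ± 0.10 and 3.71 ± 0.08, an end-to-end difference of 6.53. Of 17 inhibitory and coinhibitory receptors, 9 were graded up (5.1% of all genes were), 2 graded down (2.48%), 1 peaked (2.77%) and 1 had its trough in CD5hi cells (2.51%). The remaining 4 rose at the Treg step alone (23.9%). Pdcd1, which encodes PD-1, averaged 1.65 ± 0.52, 8.34 ± 1.05 and 63 ± 4.24 CPM. Cd200, the ligand of an inhibitory receptor, averaged 5.31 ± 1.37, 23.7 ± 1.98 and 57.3 ± 3.93 CPM, and its first step (2.15 ± 0.13) was larger than its second (1.27 ± 0.12). Icos, a costimulatory receptor of the CD28 family, averaged 40.9 ± 1.67, 66.2 ± 5.22 and 292 ± 30.9 CPM. Ptger2, a prostaglandin E2 receptor, had 0.798, 1.34, 0.884 and 0.736 CPM in CD5lo cells, 6.71, 7.01, 6.4 and 7.16 CPM in CD5hi cells and 49.4, 40.6, 45.8 and 49.6 CPM in Treg. Its steps were nearly equal, at 2.84 ± 0.13 and 2.76 ± 0.10.

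Genes known from Treg were graded up more often than genes at large, although the list is defined by Treg and its second step is therefore no finding. Of 40 such genes tested, 24 were graded up (5.1% of all genes were), 13 rose at the Treg step alone (23.9%) and 3 had a trough in CD5hi cells (2.51%). The first step was called higher in 24 and lower in 3 of the 40, against 9.36% and 6.58% of all genes tested. Folr4, also called Izumo1r, a surface protein of Treg and anergic cells, had 38.1, 39.3, 32.8 and 36 CPM in CD5lo cells, 227, 232, 229 and 231 CPM in CD5hi cells and 739, 710, 710 and 676 CPM in Treg. Each group occupied a narrow range of its own, and the first step (2.65 ± 0.05) exceeded the second (1.63 ± 0.05). Nt5e, the ectonucleotidase CD73, averaged 7.49 ± 2.03, 44.9 ± 3.92 and 285 ± 11.8 CPM, in steps of 2.58 ± 0.13 and 2.67 ± 0.12. Il2rb, the shared beta chain of the receptors for interleukins 2 and 15, averaged 7.57 ± 1.27, 34.7 ± 1.63 and 1176 ± 56.1 CPM. Of the Ikaros family of zinc finger factors, Ikzf2 (Helios) averaged 1.79 ± 0.434, 9.88 ± 0.66 and 929 ± 41.8 CPM. Ikzf4 (Eos) averaged 5.92 ± 0.826, 18.7 ± 1.16 and 140 ± 5.97 CPM, and Ikzf3 (Aiolos) 126 ± 4.82, 184 ± 5.79 and 316 ± 18.2 CPM. All 3 were graded up, whereas Ikzf1 (Ikaros) peaked in CD5hi cells at 1126 ± 35.7 CPM, against 990 ± 32.3 in CD5lo cells and 410 ± 13.7 in Treg.

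The genes best known as markers of Treg differed among themselves at the first step. Il2ra, the high-affinity interleukin 2 receptor chain CD25, had 3.1, 3.59, 2.47 and 2.83 CPM in CD5lo cells, 1.95, 1.64, 1.25 and 1.9 CPM in CD5hi cells and 898, 824, 815 and 884 CPM in Treg. All 4 CD5hi libraries lay below all 4 CD5lo libraries, a first step of -0.84 ± 0.13 (adjusted p = 9.8e-05). The Foxp3 difference between CD5hi and CD5lo was 0.11 ± 0.05 (adjusted p = 0.19). Both naive groups were gated as Foxp3-GFP-negative, so the sort limited this difference, and the Foxp3 share given below, in advance. Ctla4, an inhibitory receptor that competes with CD28, was graded up at 1.92 ± 0.178, 3.54 ± 0.542 and 438 ± 48.6 CPM, with a first step of 0.87 ± 0.12 (adjusted p = 5.5e-05), and Ikzf2 rose at that step by 2.45 (adjusted p = 1.8e-11). Set against the Treg level, the CD5hi excess over CD5lo was 0.242% for Foxp3, -0.153% for Il2ra, 0.371% for Ctla4 and 0.871% for Ikzf2. Over the 671 genes graded up, the same share had a median of 12.6% (quartiles 7.83 to 19.4%), and over the 3144 genes that rose at the Treg step alone it had a median of 0.35% (-3.13 to 3.73%). These shapes are defined by whether the first step was called upward, so the gap between the medians follows from the definition.

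The 8 genes graded up that came first by the naming rule, which takes the larger of the smaller steps, included Coro2a, a coronin that binds actin, at 0.846 ± 0.446, 9.16 ± 2.65 and 367 ± 16.7 CPM, in steps of 3.42 ± 0.25 and 5.33 ± 0.19. Dhrs3, a retinal reductase, averaged 0.127 ± 0.0393, 1.12 ± 0.347 and 13.2 ± 1.65 CPM. The first 3 by the rule, Ptpn5, Penk and Rgs9, rested on few counts in CD5lo cells. Ptpn5, a tyrosine phosphatase, had 1, 0, 0 and 0 counts in the CD5lo libraries, 2, 14, 15 and 10 in the CD5hi libraries and 888, 658, 802 and 751 in Treg. The CD5hi level was 43.2 times the CD5lo level, with an exact 95% counting interval of 7.33 to 1746. For Penk, the precursor of enkephalin, the ratio was 19 (4.88 to 163) from 36 and 2 counts. For Rgs9, a regulator of G protein signalling, it was 12.6 (6.16 to 30.1) from 96 and 8 counts. Such intervals cover counting error, and they are too narrow if both mates of a read pair were counted, for which the excess of even counts speaks.

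**Figure D2:**
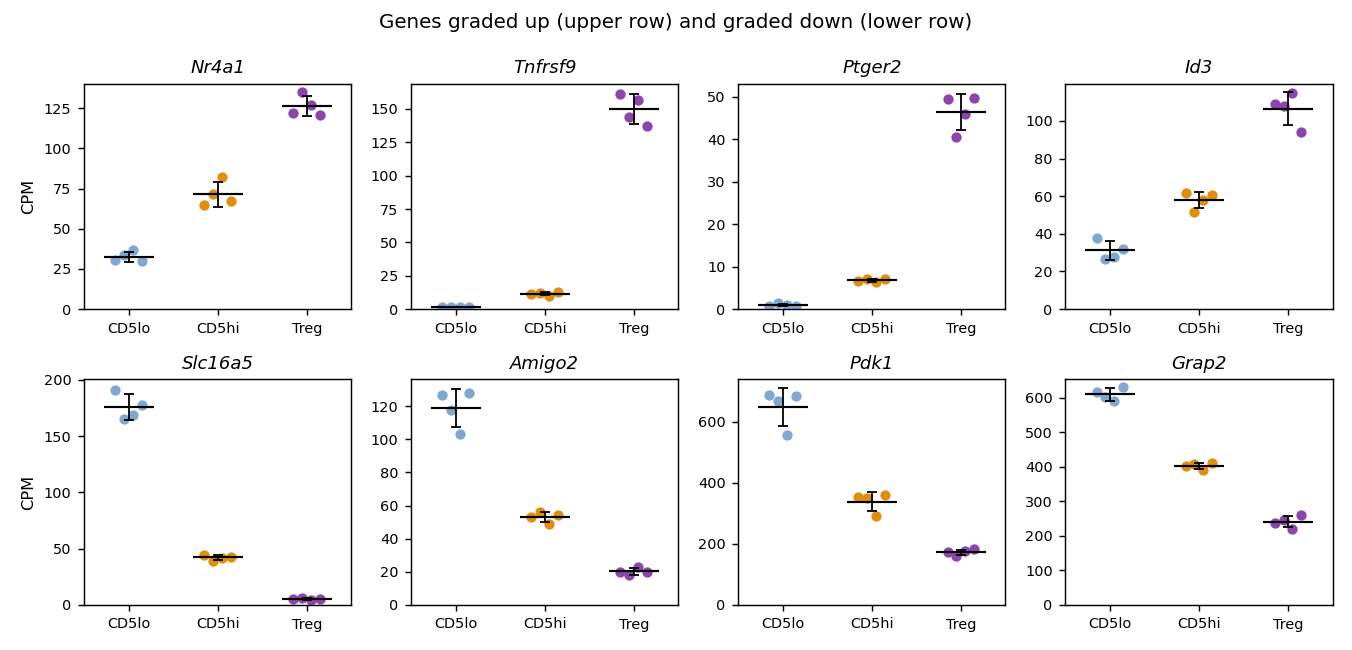
Vertical axes are CPM and start at 0; each dot is 1 of 4 libraries, and bars give the mean ± SD for CD5lo, CD5hi and Treg. In each of the 8 genes the CD5hi libraries lie between the CD5lo and the Treg libraries, with the smallest gap in relative terms in Grap2 (610, 403 and 241 CPM).

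Genes graded down held several parts of the TCR signalling machinery. Of 31 proximal signalling components tested, 22 were lower in Treg than in CD5lo cells, against 31% of all genes tested, and 8 were graded down, against 2.48%. Grap2, the adaptor GADS that joins LAT to SLP-76, had 616, 602, 589 and 632 CPM in CD5lo cells, 401, 409, 391 and 410 CPM in CD5hi cells and 237, 246, 220 and 260 CPM in Treg. The 3 ranges were apart, in steps of -0.60 ± 0.05 (adjusted p = 4.3e-08) and -0.74 ± 0.05 (adjusted p = 2.8e-10). Txk, a tyrosine kinase of T cells, averaged 178 ± 9.82, 146 ± 8.04 and 66.1 ± 2.31 CPM. Themis, a regulator of TCR signals in thymocytes, averaged 197 ± 6.2, 156 ± 4.69 and 39.6 ± 2.56 CPM. Cd4, the coreceptor for MHC class II, belonged here too, with steps of -0.26 ± 0.04 and -0.37 ± 0.04. Cd247, Lck and Lat, which encode the zeta chain, the Src-family kinase and the membrane scaffold, were also graded down, with end-to-end differences of -0.41, -0.35 and -0.48. Their single steps were small. With Treg replicate 3 as the sole Treg library, which is then assumed to vary like the naive groups, the second step of Lat was -0.10 (adjusted p = 0.3), against -0.27 with all 4, and that of Cd247 was -0.06 (adjusted p = 0.31), against -0.11. The second step of Cd247 also did not pass on library totals alone (-0.04, adjusted p = 0.41), in the fit on all 20 libraries (-0.12, adjusted p = 0.063) or without Treg replicate 1 (-0.10, adjusted p = 0.056). The first step of Lck, -0.15, did not pass on library totals alone (adjusted p = 0.054), in the fit on all 20 libraries (adjusted p = 0.051) or without CD5lo replicate 1 or 4 or CD5hi replicate 2 or 3 (adjusted p = 0.12, 0.096, 0.11 and 0.099). That of Lat, -0.21, did not pass in the fit on all 20 libraries (adjusted p = 0.054) or without CD5lo replicate 2 or CD5hi replicate 1 (adjusted p = 0.062 and 0.068).

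The graded falls named by size lay outside TCR signalling. Slc16a5, a member of the monocarboxylate transporter family, had 191, 165, 169 and 178 CPM in CD5lo cells, 44.5, 39.4, 41.6 and 42.9 CPM in CD5hi cells and 5.32, 5.87, 4.18 and 4.82 CPM in Treg. Every CD5hi library lay far below every CD5lo library and far above every Treg library, in steps of -2.06 ± 0.07 and -3.06 ± 0.08. Adamts14, a secreted metalloprotease, averaged 43.1 ± 4.33, 7.22 ± 0.919 and 0.168 ± 0.0872 CPM. Pdlim4, a PDZ and LIM domain protein, averaged 91.9 ± 4.96, 25.1 ± 1.86 and 0.221 ± 0.188 CPM. Abhd15 averaged 20.7 ± 1.57, 6.98 ± 1.29 and 0.488 ± 0.105 CPM, and Nacc2, a transcriptional repressor, 44.4 ± 4.07, 17.9 ± 0.64 and 2.48 ± 0.392 CPM. Amigo2, an adhesion protein with leucine-rich repeats, had 127, 118, 103 and 128 CPM in CD5lo cells, 52.8, 55.9, 49.1 and 54.2 CPM in CD5hi cells and 20.1, 17.8, 23.1 and 19.8 CPM in Treg. Its steps of -1.17 ± 0.08 and -1.39 ± 0.08 were near equal, and the quadratic trend was not called (0.11, adjusted p = 0.21). Tmie averaged 112 ± 8.34, 50.3 ± 6.15 and 8.16 ± 1.01 CPM. Pdk1, the kinase that restrains pyruvate dehydrogenase, averaged 650 ± 62.4, 338 ± 31.9 and 172 ± 9.05 CPM, with nearly equal steps of -0.94 ± 0.07 and -0.98 ± 0.07. The summed CD8, NK and gamma-delta markers were also highest in CD5lo libraries (89.4 to 97.1 CPM), and their part in these falls was not tested.

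The 364 genes with a peak in CD5hi cells included inhibitors of TCR signalling. Of 36 negative regulators tested, 5 peaked (2.77% of all genes did), 6 were graded up (5.1%), 2 graded down (2.48%) and 1 had its trough there (2.51%). Another 10 rose (23.9%) and 4 fell (23.7%) at the Treg step alone, and 2 rose at the CD5hi step alone (1.5%). The 5 peaks include Cd5 itself, the marker of the sort, so its place among them is no separate finding. Beside Cd5, Cd6, a related receptor and scaffold of TCR signalling, had 205, 221, 186 and 215 CPM in CD5lo cells, 1040, 1048, 941 and 1060 CPM in CD5hi cells and 611, 609, 614 and 608 CPM in Treg. The CD5hi libraries stood above both other groups, with steps of 2.31 ± 0.05 (adjusted p = 5.4e-15) and -0.74 ± 0.05 (adjusted p = 1e-09). Ptpn6, the phosphatase SHP-1, averaged 264 ± 27.3, 372 ± 34.4 and 244 ± 18.1 CPM. Dusp6, a phosphatase of ERK, averaged 25.7 ± 2.12, 35.8 ± 4.48 and 23.6 ± 2.43 CPM, and Cblb, a ubiquitin ligase that limits TCR signals, 140 ± 7.54, 188 ± 6.27 and 165 ± 10.6 CPM. Signal-promoting genes were among the peaks as well. Malt1, the paracaspase of the NF-kappaB branch, averaged 162 ± 6.44, 221 ± 2.76 and 143 ± 1.69 CPM, and Cd28, the main costimulatory receptor, 311 ± 12.1, 373 ± 9.85 and 312 ± 13 CPM. Rasgrp1, the activator of Ras, completed the 3 peaks among proximal components, with a first step of 0.19 ± 0.05 (adjusted p = 0.015) that did not pass in the fit on all 20 libraries (adjusted p = 0.22) or without CD5lo replicate 3 or CD5hi replicate 4 (adjusted p = 0.051 and 0.068).

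Some peaks were steep on both sides. Chn2, the Rac GTPase activator beta-chimaerin, had 2.41, 3.01, 3.05 and 2.69 CPM in CD5lo cells, 28.4, 31.3, 28.1 and 29.9 CPM in CD5hi cells and 7.38, 6.49, 6.58 and 6.55 CPM in Treg. The CD5hi range was the highest, and Treg lay apart from CD5lo, in steps of 3.40 ± 0.09 and -2.12 ± 0.08. Jup, plakoglobin, a relative of beta-catenin, averaged 3.66 ± 0.236, 16.7 ± 1.09 and 1.58 ± 0.335 CPM. Id2, an inhibitor of E proteins, had 17.7, 16.4, 12.5 and 16.2 CPM in CD5lo cells, 65.8, 63.2, 54.1 and 65.8 CPM in CD5hi cells and 19.2, 17.9, 20.2 and 24.2 CPM in Treg. Its steps were 1.98 ± 0.10 and -1.61 ± 0.10, whereas its relative Id3 was graded up at 31.2 ± 5.07, 58 ± 4.49 and 107 ± 8.79 CPM. Klhdc2, a substrate receptor of a ubiquitin ligase, averaged 32.7 ± 4.24, 103 ± 6.91 and 30.9 ± 2.32 CPM. F2rl1, the protease-activated receptor PAR2, averaged 43.4 ± 4.37, 130 ± 9.59 and 47.3 ± 4.41 CPM. Rnf144a, a ubiquitin ligase, averaged 30.7 ± 2.66, 82.6 ± 6.09 and 27.1 ± 1.44 CPM, and Wfikkn2, which binds growth factors of the TGF-beta family, 4.25 ± 0.196, 17.6 ± 0.675 and 5.1 ± 0.601 CPM. For Klhdc2 and F2rl1 the end-to-end difference did not pass (adjusted p = 0.37 and 0.17). Across the 364 peaks, Treg was lower than CD5lo in 173, higher in 43 and not called in 148.

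Genes of naive identity and homing were mostly lower in Treg, and went both ways at the first step. Of 30 tested, 20 were lower in Treg than in CD5lo cells (31% of all genes were) and 3 were higher (32.7%). At the first step 7 rose (9.36%) and 8 fell (6.58%). In all, 6 peaked in CD5hi cells (2.77%), 4 were graded down (2.48%), 3 had their trough in CD5hi cells (2.51%) and 12 fell at the Treg step alone (23.7%). Dapl1, a gene of naive T cells, had 36.1, 42.4, 34.7 and 32.5 CPM in CD5lo cells, 89.5, 107, 88.8 and 86.5 CPM in CD5hi cells and 2.84, 3.28, 2.48 and 2.08 CPM in Treg. It stood highest in CD5hi cells and near the bottom in Treg, in steps of 1.35 ± 0.09 and -5.12 ± 0.12. Igfbp4, a binding protein of insulin-like growth factors, averaged 646 ± 45.1, 1158 ± 95.4 and 96.9 ± 6.19 CPM. S1pr1, the receptor for exit from lymph nodes, averaged 627 ± 39.5, 748 ± 35.9 and 450 ± 30.3 CPM, Il6st, the signalling chain gp130, 334 ± 25.9, 485 ± 39.1 and 356 ± 22.7 CPM, and Lef1, a factor of naive cells, 382 ± 20.8, 444 ± 7.62 and 128 ± 11 CPM. Ccr7, the lymph node homing receptor, was graded down instead, at 567 ± 28.2, 496 ± 16.9 and 212 ± 11.3 CPM.

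Genes with a trough in CD5hi cells stood out among interferon-stimulated genes. Of 55 tested, 16 had their trough there, against 2.51% of all genes tested, 19 were lower in CD5hi than in CD5lo cells, against 6.58%, and 5 were higher. Ly6e, a GPI-anchored surface protein, had 1017, 943, 938 and 929 CPM in CD5lo cells, 681, 668, 649 and 633 CPM in CD5hi cells and 1562, 1583, 1378 and 1588 CPM in Treg. The CD5hi libraries were the lowest and Treg the highest, in steps of -0.54 ± 0.05 (adjusted p = 3.4e-07) and 1.22 ± 0.05 (adjusted p = 6.7e-13). Igtp, an immunity-related GTPase, had 283, 305, 368 and 275 CPM in CD5lo cells, 182, 201, 223 and 183 CPM in CD5hi cells and 303, 343, 347 and 336 CPM in Treg. CD5lo and Treg libraries overlapped above those of CD5hi. Iigp1, of the same family, averaged 103 ± 16.5, 52.6 ± 8.55 and 160 ± 21.4 CPM. Ly6c1 averaged 200 ± 13.6, 48.8 ± 5.52 and 72.5 ± 2.34 CPM, but it has a near-identical neighbour whose reads could be shared, and its second step of 0.57 did not pass in the fit on all 20 libraries (0.56, adjusted p = 0.059). The list was not uniform. Ifit1, Ifit3 and Isg15, which type I interferon induces strongly, were called at neither step in the fit reported here, at 46.5 ± 5.22, 53.2 ± 5.07 and 51.6 ± 5.12 CPM for Ifit1 and 22.5 ± 2.91, 26 ± 2.51 and 29.6 ± 2.2 CPM for Isg15. With the paired naive libraries as a block, their first steps upward passed for Ifit1 (0.20, adjusted p = 0.038) and Isg15 (0.21, adjusted p = 0.042). They also passed for Ifit1 without CD5lo replicate 1 (adjusted p = 0.048) and for Isg15 without CD5lo replicate 3 (adjusted p = 0.017). The second step of Isg15, also upward, passed in 6 alternatives: with the full block (adjusted p = 0.047), with the block on naive pairs (adjusted p = 0.026), on library totals alone (adjusted p = 0.017), and without CD5lo replicate 3, CD5hi replicate 1 or Treg replicate 1 (adjusted p = 0.036, 0.028 and 0.046). For Ifit3 the levels were 29 ± 3.06, 32.8 ± 4.96 and 34 ± 3.04 CPM. None of the 3 had its lowest mean in CD5hi cells, by these means. End to end, Isg15 was called higher in Treg than in CD5lo cells (0.4, adjusted p = 0.00069). Ifit3 was called higher as well (0.23, adjusted p = 0.048), but not in 7 of 21 alternatives.

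Among troughs named by size, Gprin3, a protein known from neurons, had 17.2, 17.1, 16.6 and 16.3 CPM in CD5lo cells, 2.06, 1.97, 2.58 and 2.14 CPM in CD5hi cells and 37.5, 34.8, 35 and 46.2 CPM in Treg. The CD5hi libraries lay below both ends of the order, in steps of -2.93 ± 0.10 and 4.12 ± 0.11. Tspan31, a tetraspanin, averaged 19.8 ± 1.74, 7.23 ± 0.445 and 34.6 ± 2.8 CPM, Nav2, a cytoskeletal protein, 17.8 ± 2.87, 7.83 ± 1.02 and 34.8 ± 5.37 CPM, and Ccr9, the receptor for homing to the small intestine, 14.7 ± 0.88, 7.11 ± 0.905 and 22.4 ± 3.83 CPM. Tubb2a, a beta-tubulin with close paralogs, and Lca5, a ciliary protein, averaged 8.28 ± 0.883 and 4.56 ± 0.481 CPM in CD5hi cells, below 20.5 ± 2.63 and 9.24 ± 0.439 CPM in CD5lo cells and 18.4 ± 2.48 and 10.6 ± 0.572 CPM in Treg. Prdm1, the factor Blimp-1, averaged 11.7 ± 2.33, 7.48 ± 1.36 and 41.5 ± 4.81 CPM. Cd44 averaged 32.6 ± 1.39, 21.6 ± 1.41 and 138 ± 6.01 CPM, and the CD44-low gate was set on the naive groups. Klrg1, an inhibitory receptor of terminal effectors, had 29 counts over the 4 CD5lo libraries, 2 over the CD5hi libraries and 8856 in Treg, a CD5hi level of 0.0726 times that of CD5lo (0.0084 to 0.287). Jun, of the AP-1 factors, varied more. It had 30.2, 19.2, 32.4 and 41.2 CPM in CD5lo cells, 8.09, 3.93, 10.9 and 10.8 CPM in CD5hi cells and 22.5, 42.7, 15.1 and 14.9 CPM in Treg. The CD5hi libraries were again lowest, but with Treg replicate 3 as the sole Treg library, its spread borrowed from the naive groups, the second step was 0.82 and did not pass (adjusted p = 0.11), against 1.48 with all 4.

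**Figure D3:**
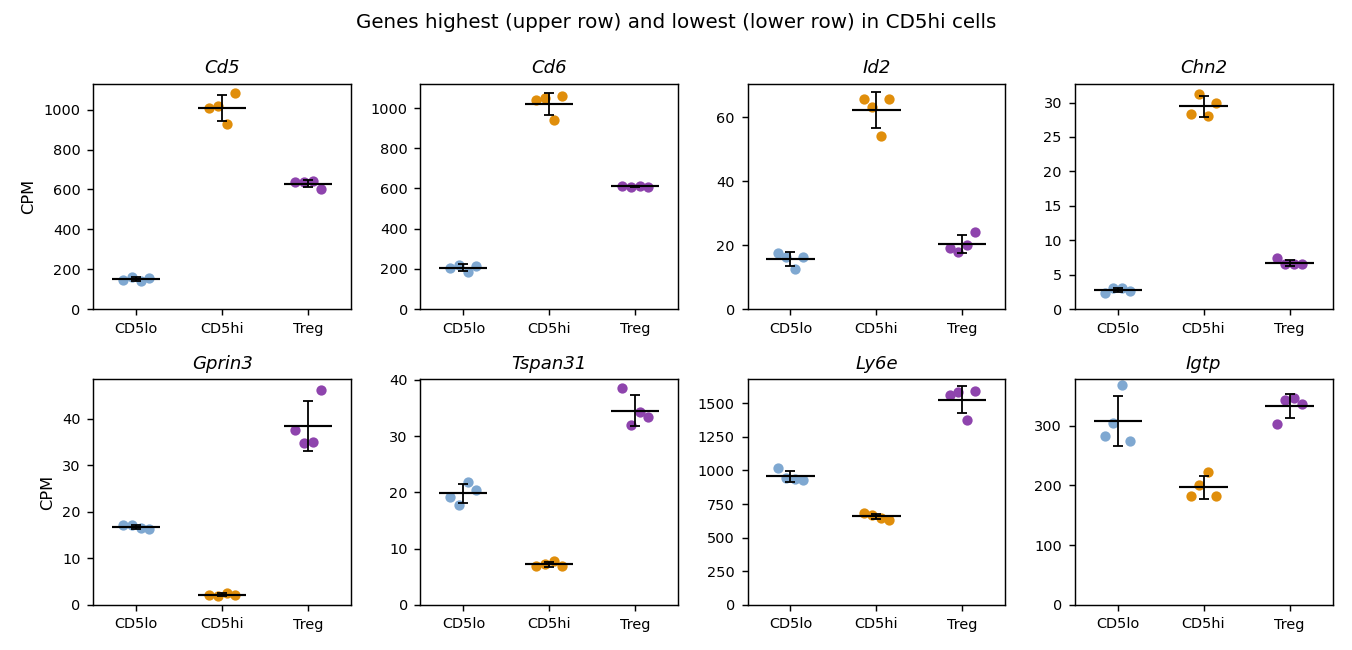
Vertical axes are CPM and start at 0; each dot is 1 of 4 libraries, and bars give the mean ± SD for CD5lo, CD5hi and Treg. In the upper row the CD5hi libraries lie above both other groups (1008 CPM on average for Cd5, against 151 and 630), and in the lower row below both (2.19 CPM for Gprin3, against 16.8 and 38.4).

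In another 407 genes CD5hi cells differed from CD5lo cells while Treg did not pass a test against CD5hi, which does not show that CD5hi and Treg were equal. Among falls, the first by size was Dntt, the terminal transferase that adds bases during receptor rearrangement in the thymus. It had 29, 26.4, 33.5 and 28.7 CPM in CD5lo cells, 2.15, 2.06, 1.53 and 2.39 CPM in CD5hi cells and 2.45, 1.72, 1.97 and 1.66 CPM in Treg. CD5lo libraries stood alone above the overlapping CD5hi and Treg libraries, with a first step of -3.85 ± 0.13 and a second of -0.05 ± 0.15 (adjusted p = 0.8). Car2, carbonic anhydrase 2, averaged 11.9 ± 1.42, 3.02 ± 0.624 and 2.67 ± 0.299 CPM, Kif23, a kinesin of cell division, 20.3 ± 2.63, 5.57 ± 1.31 and 5.13 ± 1.09 CPM, and Tec, the founding Tec kinase, 28.2 ± 1.6, 13.9 ± 0.8 and 12.5 ± 0.76 CPM. The pseudogene Bambi-ps1 averaged 42.5 ± 2.36, 19.2 ± 1.2 and 20.5 ± 1.88 CPM. In 1 of 21 alternatives each, the second step passed downward for Tec and upward for Bambi-ps1. That would make Tec graded down and Bambi-ps1 a trough. Among rises, Bbc3, the pro-apoptotic protein PUMA, averaged 12.7 ± 2.64, 32.1 ± 6.47 and 26.8 ± 0.702 CPM. Its second step of -0.26 passed downward with the replicate block (-0.24, adjusted p = 0.039), with the block limited to naive pairs (-0.25, adjusted p = 0.0044) and without CD5hi replicate 3 (-0.34, adjusted p = 0.031), which would make it a peak. Ms4a4c averaged 11.4 ± 1.21, 30 ± 4.15 and 26.1 ± 3.45 CPM, and Smox, spermine oxidase, 12.2 ± 0.528, 23.4 ± 0.8 and 24.8 ± 1.31 CPM. Sh3bp2, an adaptor of antigen receptor signalling, averaged 12.8 ± 0.581, 23.5 ± 0.448 and 25.3 ± 1.6 CPM, and Foxn3, a forkhead repressor, 52.9 ± 7.08, 91.4 ± 10 and 94.6 ± 7.85 CPM. On library totals alone the second steps of Smox (0.15, adjusted p = 0.031) and Sh3bp2 (0.18, adjusted p = 0.017) passed upward. At the other extreme, Vipr1, a receptor for vasoactive intestinal peptide, had 321 ± 14.1 and 320 ± 18.6 CPM in CD5lo and CD5hi cells and 11.1 ± 1.33 CPM in Treg.

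**Figure D4:**
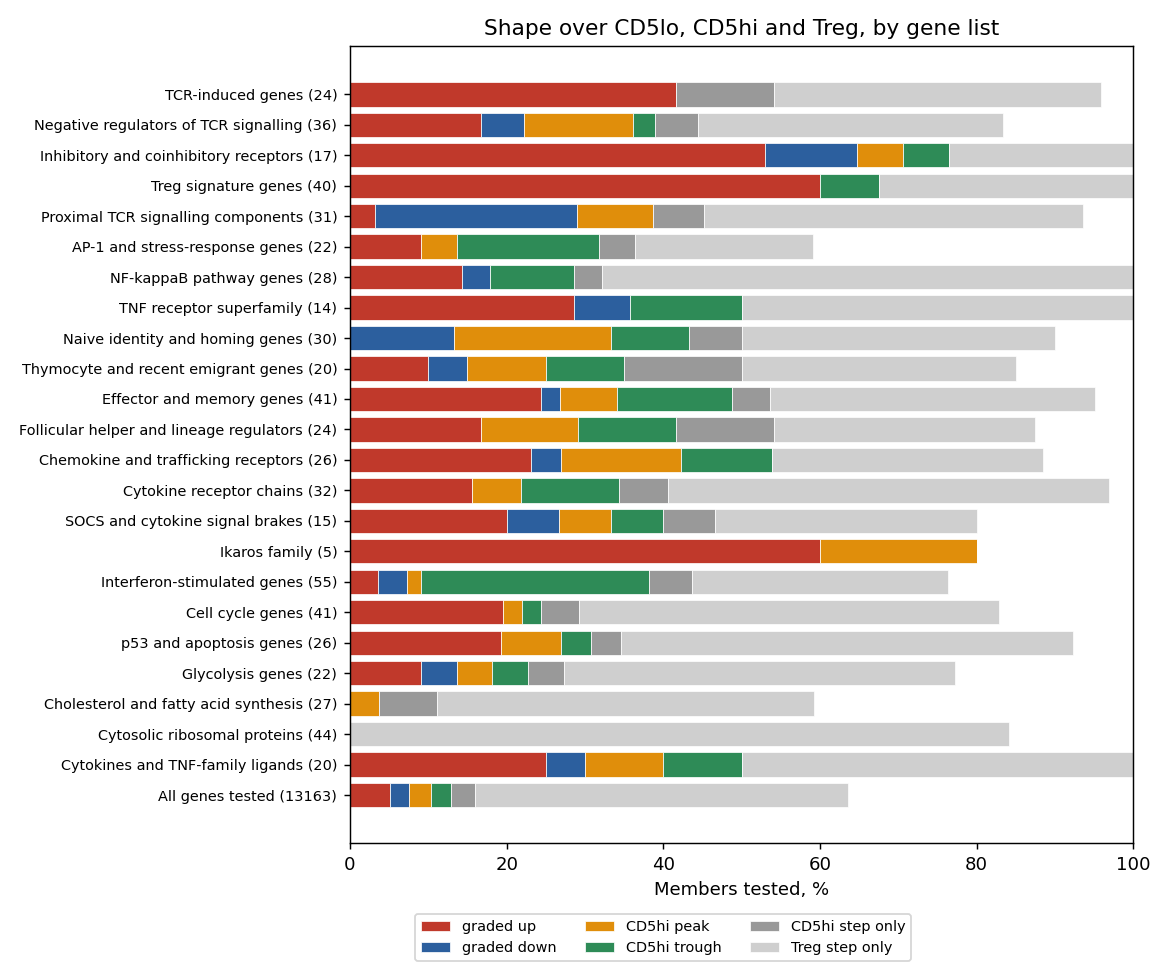
Bars give the share of tested members of each gene list with each shape, in percent, and the number tested stands in brackets. The lowest bar is all 13163 genes. Graded up genes take 10 of 24 TCR-induced genes and 24 of 40 Treg signature genes, and troughs take 16 of 55 interferon-stimulated genes.

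The remaining lists are set beside the shares over all genes tested, of which 32.7% were higher and 31% lower in Treg than in CD5lo cells, 5.1% were graded up and 23.9% rose at the Treg step alone. Of 28 NF-kappaB pathway genes, 24 were higher in Treg, 16 rose at the Treg step alone and 4 were graded up. Of 41 cell cycle genes, 28 were higher in Treg, 19 rose at the Treg step alone and 8 were graded up. Of 41 effector and memory genes, 33 were higher in Treg, 16 rose at the Treg step alone, 10 were graded up and 6 had a trough in CD5hi cells (2.51% of all genes did). The CD44 gate on naive cells bears on this list directly. Of 26 chemokine and trafficking receptors, 9 rose at the Treg step alone, 6 were graded up, 4 peaked (2.77% of all genes did) and 3 had a trough. Of 44 cytosolic ribosomal protein genes, 37 fell at the Treg step alone (23.7% of all genes did), with a median second step of -0.24 and a median first step of -0.06. Of 27 genes of cholesterol and fatty acid synthesis, 10 were higher and 9 lower in Treg than in CD5lo cells, near the shares over all genes.

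The rested libraries gave a readout that the shapes did not use. Of 12063 genes tested in both fits, rested CD5hi and rested CD5lo cells differed in 494 (4.1%), 290 higher (2.4%) and 204 lower (1.69%) in CD5hi. Over all 12147 genes tested in the rested fit, 495 were called (4.08%), 291 higher (2.4%) and 204 lower (1.68%). Of genes graded up and tested there, 162 of 604 (26.8%) were higher in rested CD5hi cells, and of genes graded down, 89 of 321 (27.7%) were lower. Of genes with a peak, 65 of 347 (18.7%) were higher, and of genes with a trough, 51 of 309 (16.5%) were lower. Genes called at the CD5hi step alone were again higher in 20 of 181 (11%) and lower in 36 of 204 (17.6%). Genes that rose or fell at the Treg step alone were called in the same direction in 1.12% and 0.327%. The rested median was 0.35 for genes graded up, -0.22 for genes graded down, 0.19 for peaks and -0.23 for troughs, against 0.00 over all genes. By Xist, replicate 3 of both rested groups was like the fresh naive libraries (at most 0.2835 CPM), while replicates 1, 2 and 4 of both carried 720.6 to 1131 CPM, so the rested groups were balanced in this respect. The rested difference had the sign of the fresh first step in 570 of 604, 308 of 321, 325 of 347 and 292 of 309 genes of the 4 shapes. It also had that sign in 2840 of 4447 genes with no step called. Among genes that rose or fell at the Treg step alone, it did so in 1744 of 2596 and 2000 of 3054. With the replicate numbers as a block, which pair CD5hi with CD5lo libraries, 1435 of 12147 genes (11.8%) were called in the rested fit, and with the shapes taken from the blocked fit too, the counts called in the same direction were 304, 178, 168 and 160. The counts also depended on single libraries. Without rested CD5hi replicate 1, rested CD5hi replicate 2 or rested CD5lo replicate 4, 314, 309 and 328 genes were called in all. The graded down genes lower in rested CD5hi cells then numbered 52, 53 and 57.

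Several named genes differed in the same direction after rest. Their values come from the rested fit without the replicate block, which called fewer genes than the blocked fit. A gene that did not pass here is therefore not shown to have lost its difference. Nr4a1 averaged 7.69 CPM in rested CD5hi cells and 2.59 CPM in rested CD5lo cells, a difference of 1.57 ± 0.18 (adjusted p = 0.0008), and both values lay below the fresh ones, a comparison across handling and partly across sex that was not tested. Tnfrsf9 (adjusted p = 0.00064), Pdcd1 (2.67 ± 0.36), Folr4 (2.58 ± 0.10), Nt5e (1.74 ± 0.08), Ptger2 (2.38 ± 0.16) and Coro2a (2.68 ± 0.15) were called higher as well. Egr1 averaged 11.9 CPM in rested CD5hi cells and 10.3 CPM in rested CD5lo cells, and its difference of 0.20 ± 0.26 did not pass (adjusted p = 0.87). Egr2 (0.67 ± 0.47, adjusted p = 0.63) and Egr3 (-0.30 ± 0.47, adjusted p = 0.9) did not pass either, at under 1.5 CPM. Among peaks, Cd5, on which the cells had been sorted, differed by 2.29 ± 0.06, Cd6 by 2.44 ± 0.06, Chn2 by 3.32 ± 0.25, Id2 by 1.32 ± 0.15 and Dapl1 by 1.27 ± 0.13. Ptpn6 (0.17 ± 0.08, adjusted p = 0.42) and Dusp6 (0.17 ± 0.14, adjusted p = 0.72) did not pass. Among genes graded down, Slc16a5 differed by -2.17 ± 0.27, Pdlim4 by -1.27 ± 0.22, Pdk1 by -0.73 ± 0.08 and Cd4 by -0.28 ± 0.05, whereas Adamts14 did not pass (-1.76 ± 0.54, adjusted p = 0.13). Among troughs, Gprin3 differed by -1.59 ± 0.16, Ly6e by -0.85 ± 0.07 and Igtp by -0.71 ± 0.15. Dntt, called at the CD5hi step alone, averaged 3.14 CPM in rested CD5hi cells and 28.9 CPM in rested CD5lo cells.

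**Figure D5:**
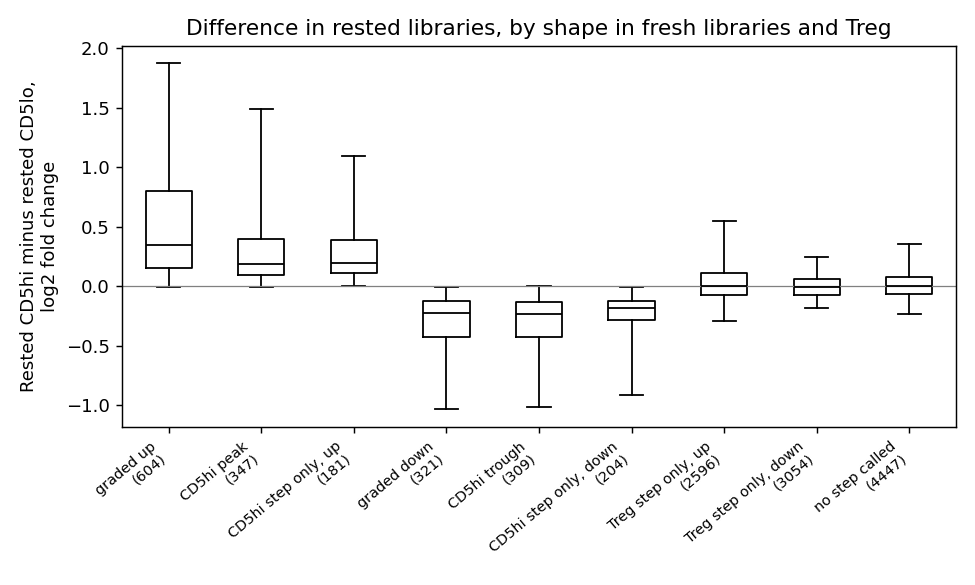
Boxes give the quartiles and median, and whiskers the 5th to 95th percentile, of the rested CD5hi minus rested CD5lo log2 fold change for genes of each shape, with the number of genes in brackets. Medians of genes graded up (0.35) and peaks (0.19) lie above 0, those of genes graded down (-0.22) and troughs (-0.23) below, and genes called at the Treg step alone centre on 0.00.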

How the data were processed

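Poly(A) RNA of sorted mouse CD4 T cells was sequenced as 50-cycle paired ends, per the labels' protocols. The authors deposited 1 table of raw counts per gene. The submitters' processing notes name TopHat2 2.0.11, Subread, featureCounts 1.4.5, edgeR and mm9, without their roles. Neither the annotation nor the use of strand is given in the sources used here, so reads of antisense partners may be mixed. Counts of 1 to 10 were even in 62.3 to 66.2% of cases, a sign that mates may have been counted separately. Groups were taken from titles, since 1 label tag calls every sample CD5lo naive.

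The 12 fresh libraries were fitted with edgeR 4.0.16 (R 4.3.3) using TMM scaling, filterByExpr, a 3-level factor and quasi-likelihood tests with 9 residual degrees of freedom. Of 22068 genes, 13163 were tested. SE is the fold change divided by the root of F, and is unreliable near 0. The linear, quadratic and step contrasts were each adjusted over all genes tested. The 8 rested libraries were fitted alone (12147 genes, 6 residual degrees of freedom). The steps were tested on simulated counts with known shapes. Per the design text the 4 libraries of a group are biological replicates. Labels do not say whether equal numbers share mice, but deviations of same-numbered CD5hi and CD5lo libraries correlated at 0.323 to 0.542 when fresh and 0.357 to 0.799 when rested, so these pairs were treated as paired in the blocked alternative, while Treg correlated with them at -0.193 to 0.08.

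Named genes were, for each of the 4 shapes, up to 8 with the largest smaller step, no overlap between neighbouring groups and a mean of at least 10 CPM in the highest group. To these came 5 in each direction per single step, up to 4 per gene list and a fixed set (Cd5, Foxp3, Cd44, Cd4, Nr4a1, Nr4a3, Egr1, Egr2, Egr3, Irf4). Other list members were named after their values were seen. The shapes, lists and members were chosen with earlier results of these data known. Alternatives were RLE scaling, library totals, 2 other filters, DESeq2 1.42.0, the fit on all 20 libraries, replicate blocks, Treg replicate 3 alone, each library left out, and 2 other definitions of the shapes. The block limited to naive pairs was added after seeing the data. Results for some list members are not reported here.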

Additional observations from a re-analysis of the deposited data

Results flagged for a closer look

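For the values below, 1 library of 4 lay apart from the others of its group, with a gap to its neighbour that took up most of the range of the group, past Dixon's 95% critical value. Of 462 gene and group sets looked at, 31 had such a library. Chance flags about 1 in 20 groups, and no explanation was tested. That rate does not hold where all other libraries of a group had 0, since any count is then flagged. This was so for Penk, Ptpn5 and Klrg1 below, which had 2, 1 and 2 counts. Among the fresh CD5lo libraries, Penk was at 0.0348 CPM in replicate 2, where the other libraries had 0. Ptpn5 was at 0.0181 CPM in replicate 1, where the other libraries had 0. Ikzf4 was at 7.14 CPM in replicate 1, against 5.41 to 5.69 CPM in the others. Pdk1 was at 557 CPM in replicate 3, against 668 to 687 CPM in the others. Rasgrp1 was at 561 CPM in replicate 3, against 618 to 626 CPM in the others. Il6st was at 295 CPM in replicate 3, against 343 to 352 CPM in the others. Ly6e was at 1017 CPM in replicate 1, against 929 to 943 CPM in the others. Sh3bp2 was at 12 CPM in replicate 3, against 13 to 13.2 CPM in the others.

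Among the fresh CD5hi libraries, Pdk1 was at 291 CPM in replicate 3, against 350 to 359 CPM in the others. Dapl1 was at 107 CPM in replicate 2, against 86.5 to 89.5 CPM in the others. Cd6 was at 941 CPM in replicate 3, against 1040 to 1060 CPM in the others. Malt1 was at 217 CPM in replicate 2, against 222 to 223 CPM in the others. Klrg1 was at 0.0342 CPM in replicate 4, where the other libraries had 0. Lca5 was at 3.84 CPM in replicate 2, against 4.78 to 4.84 CPM in the others. Kif23 was at 3.64 CPM in replicate 3, against 5.96 to 6.41 CPM in the others.

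Among the Treg libraries, Egr2 was at 51.8 CPM in replicate 4, against 48.8 to 49.2 CPM in the others. Lck was at 819 CPM in replicate 4, against 872 to 881 CPM in the others. Chn2 was at 7.38 CPM in replicate 1, against 6.49 to 6.58 CPM in the others. Cblb was at 149 CPM in replicate 3, against 169 to 171 CPM in the others. Ly6e was at 1378 CPM in replicate 3, against 1562 to 1588 CPM in the others. Vipr1 was at 13.1 CPM in replicate 4, against 10.2 to 10.7 CPM in the others.

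Among the rested CD5lo libraries, Foxp3 was at 21.6 CPM in replicate 2, against 22.5 to 22.6 CPM in the others. Isg15 was at 4.92 CPM in replicate 3, against 4.42 to 4.5 CPM in the others.

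Among the rested CD5hi libraries, Nr4a3 was at 3.37 CPM in replicate 3, against 2.69 to 2.74 CPM in the others. Tnfrsf9 was at 1.83 CPM in replicate 2, against 2.77 to 2.84 CPM in the others. Dhrs3 was at 0.254 CPM in replicate 1, against 0.494 to 0.52 CPM in the others. Nacc2 was at 54.9 CPM in replicate 3, against 46.3 to 47.4 CPM in the others. Cd247 was at 492 CPM in replicate 3, against 428 to 435 CPM in the others. Chn2 was at 6.15 CPM in replicate 2, against 7.72 to 7.97 CPM in the others. Gprin3 was at 7.91 CPM in replicate 3, against 12.9 to 13.3 CPM in the others. Ifit1 was at 10.2 CPM in replicate 3, against 7.15 to 7.56 CPM in the others.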

How the results depend on the processing

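The linear, quadratic and shape counts stayed within 1.5 times their values under RLE scaling, library totals, both other filters, DESeq2, the fit on all 20 libraries, the replicate blocks and Treg replicate 3 alone, and those under other shape definitions did not. The fit on all 20 libraries gave 496 genes graded up, 228 graded down, 254 peaks and 220 troughs. There 73.6%, 67.8%, 68.4% and 66.1% of the genes of each shape kept it. Requiring each step to be at least 1.5-fold left 345 genes graded up, 65 graded down, 82 peaks and 92 troughs, and of those tested after rest 31 graded down genes, 33 peaks and 26 troughs were called in the same direction. Defining shapes by the linear and quadratic tests gave 2821, 2833, 1351 and 1489, with 80 troughs called after rest. More genes differed after rest under other fits. DESeq2 called 892 in all, with 246 graded up, 107 peaks and 106 troughs. The fit on all 20 libraries called 1092, with 259, 111 and 108. The replicate block, which follows the pairing of CD5hi with CD5lo libraries, called 1435, with 304 graded up, 178 graded down, 168 peaks and 160 troughs, and limited to naive pairs it called 1435, with 319, 185, 170 and 170. The cause was not tested. On the fresh shapes the block gave 699 graded up, 373 graded down, 401 peaks and 347 troughs, within 1.5 times the unblocked counts. With Treg replicate 3 alone, whose spread is then taken from the naive groups, they were 570, 345, 337 and 280, and 81.4%, 83.7%, 82.1% and 79.1% of the genes of each shape kept it. Leaving out 1 library at a time gave 4130 to 4390 genes higher and 3827 to 4120 lower end to end, 1894 to 2364 above and 2249 to 2643 below the midpoint, 558 to 674 graded up, 232 to 377 graded down, 280 to 381 peaks and 268 to 340 troughs. After rest it gave 309 to 562 genes, with 117 to 165, 52 to 93, 46 to 71 and 34 to 71 of the 4 shapes. Without rested CD5lo replicate 4 the total was 328 and without rested CD5hi replicate 1 it was 314. Of the named genes, Wfikkn2 turned its end-to-end sign with Treg replicate 3 alone (-0.01, adjusted p = 0.94, against 0.26, adjusted p = 0.023). Few counts limit the first steps of Ptpn5, Penk, Rgs9 and Klrg1.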
